A study of Rattus norvegicus with 32 samples.

Results

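Transcript levels in rat lung were compared between 3 h and 1 h after hemorrhage, a step that uses 6 of the 32 lung samples of the series, chosen by their titles: 3 lungs taken at 1 h and 3 taken at 3 h, with no sham lung. Both groups were male Sprague-Dawley rats of 280 to 300 g. Both carried arterial catheters and a telemetry device for blood pressure, had 7 to 10 days to recover from the surgery, and then lost 40% of their estimated blood volume through a catheter without further treatment named in the labels. In what the labels state, the groups differ only in the hours from hemorrhage to lung collection. Each lung RNA was hybridised on a 2-colour spotted cDNA array against a pool of RNA from several organs of untreated rats, so that a value is a log2 ratio of lung to pool, with the median of the array set to 0. A difference of 1 is a doubling. The labels do not number the animals, so the p-values reflect the spread among the deposited samples only, which may be technical. Lung is a bulk tissue, in which fewer cells of a type and less RNA per cell cannot be told apart.

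Blood loss lowers the pressure and oxygen delivery of every organ, and the lung takes the whole output of the right heart. In the first hours catecholamines, angiotensin and other vasoactive signals act on its vessels, immediate early genes are transcribed, and inflammatory mediators and leukocytes may follow. The step from 1 h to 3 h asks which transcripts differ between the first of these hours and the next sampling.

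On each of the 6 arrays 12164 to 12797 of 13056 spots had a value. All 6 carried lung RNA: Sftpc, the surfactant protein of type II pneumocytes, lay between 3.04 and 4.41, Scgb1a1, secreted by club cells, between 1.94 and 3.97, and Ager, a type I pneumocyte gene, between 1.5 and 2.6. Alb, the liver's albumin, lay between -3.49 and -1.22. Pairs of 1 h arrays correlated across features at 0.528 to 0.654 and pairs of 3 h arrays at 0.24 to 0.506, while a 1 h and a 3 h array correlated at 0.243 to 0.629. The 3 h array 2 stood apart, with a median correlation of 0.277 with the other arrays of the series and a correlation of 0.623 between its paired spots, the lowest of the 32 arrays. The median SD of a gene was 0.36 at 1 h and 0.49 at 3 h.

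Of 6181 features tested (5020 of them genes with 1 symbol, the rest unnamed spots or spots with several symbols), 1 passed an adjusted p under 0.05 with limma and Benjamini-Hochberg adjustment, 0.0162% of all. It was Clrn1, which was lower at 3 h, and 0 features were called higher. An unadjusted p under 0.05 was reached by 493 features, 7.98% of all, 282 of them higher at 3 h (4.56%) and 211 lower (3.41%). This excess was 242 against 235 after quantile normalization and turned to 265 against 292 without 3 h array 1. The smallest adjusted p of a gene higher at 3 h was 0.2. The median SE of a difference was 0.39 and the median size of a difference was 0.33, and 60.3% of the features had a difference smaller than its own SE. An exact permutation test of 3 arrays against 3 cannot go below a two-sided p of 0.1. Among the 5834 features with a value on all 6 arrays, the 3 h arrays all lay above the 1 h arrays for 315 (5.4%) and all below for 311 (5.33%).

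**Figure D1:**
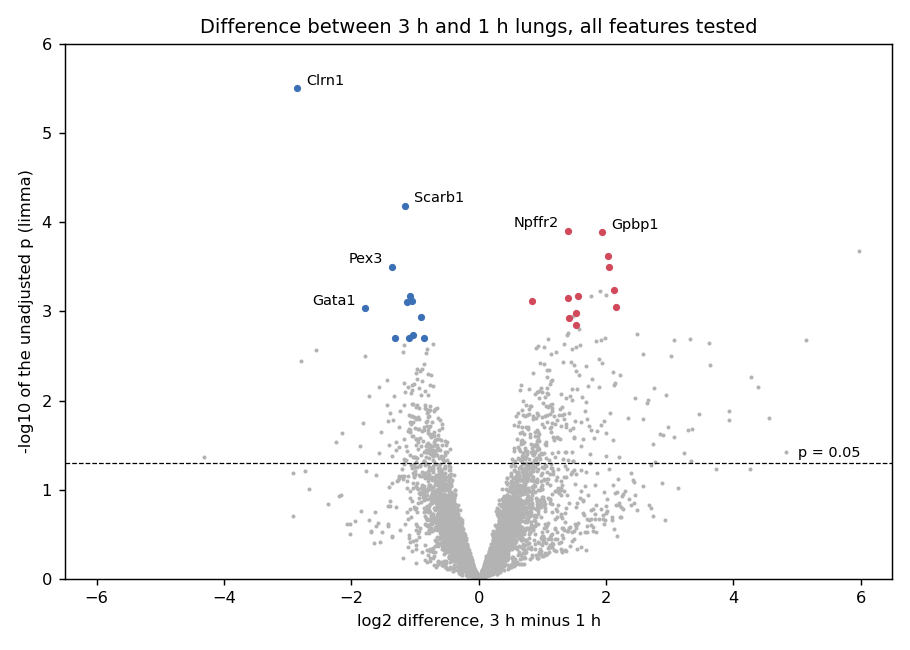
Each point is 1 of the 6181 features, with the log2 difference between 3 h and 1 h lungs on the x axis and -log10 of the unadjusted limma p on the y axis. Red and blue points are the 12 leading genes in each direction, and Clrn1 stands alone at the top left.

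Large differences were more often higher than lower at 3 h. The difference was above 1 for 384 features (6.21%) and below -1 for 139 (2.25%). Of the 384 features, 181 had 1 symbol and 284 had a value on all 6 arrays, against 98 and 111 of the 139. Of all 6181 features tested, 5020 had 1 symbol and 5834 had a value on all 6 arrays. Among features with both, 156 were above 1 and 90 below -1, a smaller excess. With each array left out in turn the features above 1 numbered 330 to 456 and those below -1 numbered 159 to 253. The excess was smallest without 3 h array 2, with 330 against 246. A spot at or below a ratio of 0.05, where the log2 scale is coarse, was present in 22.9% of the features above 1 and 31.7% of those below -1, against 4.47% of all tested. The part of low spots in the excess was not tested.

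Clrn1, which encodes clarin-1, a membrane protein known from the inner ear and retina, was the called gene. Its ratio was -0.46, -0.97 and -0.66 on the 1 h arrays and -3.45, -4.92 and -2.26 on the 3 h arrays. Every 3 h array lay below every 1 h array, and the difference was -2.85 ± 0.44 (SE, adjusted p = 0.0195 with limma), 7.2-fold lower at 3 h. The means are of 3 against 3 arrays, but each SE given here uses the spread shared by the 23 bled arrays. The SD of Clrn1 was 0.26 at 1 h and 1.33 at 3 h. On all 17 arrays of 6 to 72 h the ratio lay between -1.26 and 0.34, above every 3 h array. Low values were not particular to 3 h: among the 9 lungs that were not bled, sham array 1 read -3.42 and control array 1 read -3.11, both within the 3 h range. The 6 h mean was -0.71, with a 6 h minus 3 h difference of 2.84 (adjusted p = 0.00438) and a 6 h minus 1 h difference of -0.01. These contrasts share the 3 h or the 1 h arrays with the first.

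The paired spots of Clrn1 disagreed. On the 3 h array 1 they read -5.57 and -1.32, on array 2 -3.34 and -6.51, and on array 3 -2.19 and -2.34. On the 1 h array 3 they read -2.38 and 1.06. With spots at or below a ratio of 0.05 left out, the difference was -1.61 and no longer called (adjusted p = 0.223). It was also not called without 1 h array 1 (adjusted p = 0.0923), without 1 h array 2 (0.0623), without 1 h array 3 (0.118), or in a fit on the 6 arrays alone (0.911) or on all 32 arrays (0.244), and it kept its sign in each.

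The 12 genes of smallest p in each direction, all with values on 6 arrays, are described by their levels. Apart from Clrn1 none of the 24 was called, with adjusted p from 0.2 to 0.321 (limma), so their order is not a ranking of established changes. All 24 had 3 h arrays that did not overlap the 1 h arrays, which the choice by smallest p favours. The paired spots of 8 of the 24 differed by more than 1 on some array, against 30.4% of 5833 features. With the largest gap in parentheses, the 8 were Mmp12 (4.67), Clrn1 (4.25), Hook3 (2.7), Tmem33 (2.41), Dnajc2 (2.13), Gpbp1 (1.74), Fmo4 (1.21) and Grem1 (1.17).

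**Figure D2:**
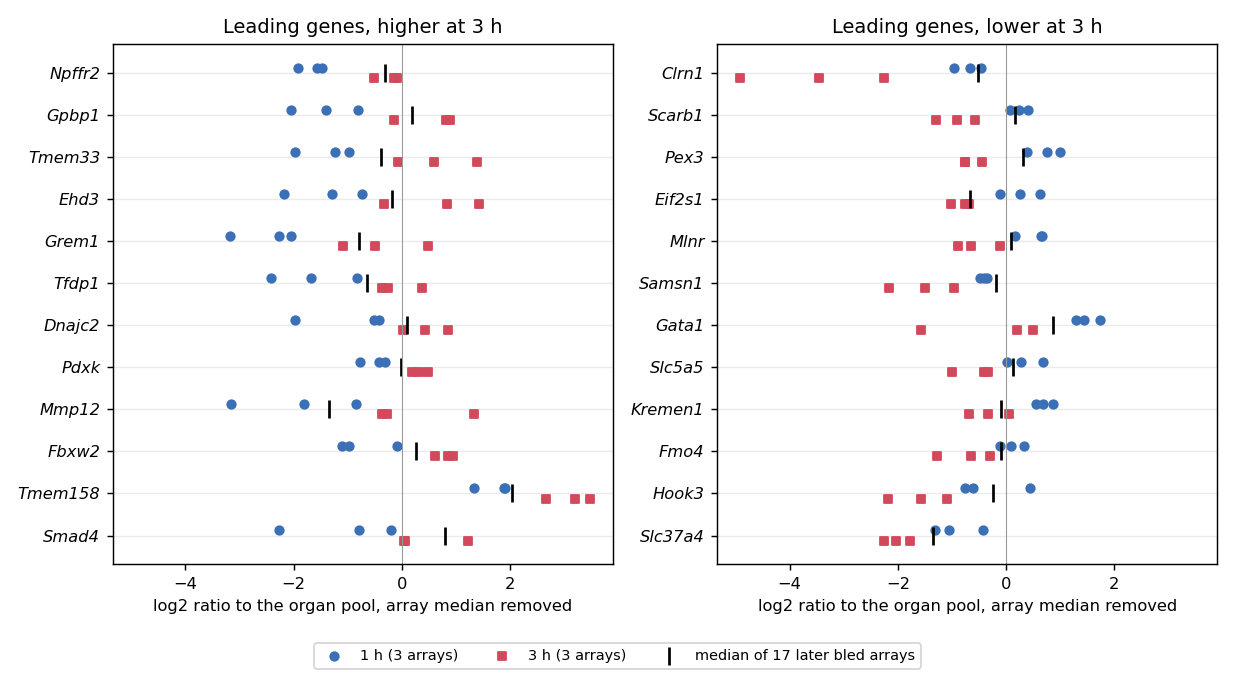
Rows are the 12 leading genes higher and the 12 lower at 3 h, and the x axis is the log2 ratio to the organ pool after removal of the array median. Blue circles are the 3 arrays of 1 h, red squares the 3 of 3 h, and the black tick is the median of the 17 arrays of 6 to 72 h; the 2 colours do not overlap in any row, and Clrn1 has the lowest 3 h values.

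Among the genes lower at 3 h, Scarb1, the scavenger receptor that takes up cholesterol from high-density lipoprotein, read 0.24, 0.40 and 0.08 at 1 h and -0.58, -0.91 and -1.29 at 3 h. The difference was -1.16 ± 0.23 (SE, adjusted p = 0.2 with limma). All 17 later arrays, from -0.42 to 0.45, lay above all 3 h arrays, and its paired spots differed by at most 0.69. Of the 9 sham and control arrays 8 lay above all 3 h arrays, and sham array 2, on which Sftpc was at -3.48 and Alb at 2.62, read -1.05. Pex3, needed to build peroxisome membranes, read 0.39, 0.99 and 0.75 at 1 h and -0.44, -0.75 and -0.76 at 3 h, a difference of -1.36 ± 0.31, and again all 17 later arrays lay above the 3 h arrays. Slc37a4, the glucose-6-phosphate transporter, read -1.06, -0.43 and -1.31 and then -2.25, -1.78 and -2.03. Fmo4, a flavin monooxygenase, differed by -0.85.

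Gata1, the transcription factor of erythroid and megakaryocyte cells, read 1.44, 1.73 and 1.29 at 1 h and 0.21, -1.58 and 0.49 at 3 h. The difference was -1.78 ± 0.46 (SE, adjusted p = 0.284 with limma), 3 h array 2 held the lowest value, and 13 of 17 later arrays lay above all 3 h arrays. Later arrays below all 1 h arrays also numbered 13 of 17. The SD of Gata1 was 0.22 at 1 h and 1.12 at 3 h. Samsn1, an adaptor of haematopoietic cells, read -0.49, -0.36 and -0.41 at 1 h and -0.97, -1.49 and -2.16 at 3 h, a difference of -1.12 ± 0.28, with all 17 later arrays but only 7 of 9 sham and control arrays above those of 3 h. Gata1 alone of the 9 measured genes of the erythroid and platelet list lay all below at 3 h (11.1%, against 5.33% of all features). The other 8 overlapped between the times, among them Ppbp with a difference of 0.58 ± 0.43. Gp5, a platelet gene of the coagulation list, also lay below at 3 h on every array, at -0.31, -5.51 and -1.77. It had 1 spot near the floor. Rhag, a red cell membrane protein of the Rh complex, differed by 1.06 ± 0.45, and Hba-a1, alpha globin, by 0.61 ± 0.43, both with overlapping arrays. Of the 9 measured genes of the erythroid and platelet list 3 were above 0 and 6 below, with a median of -0.07.

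Eif2s1, the alpha subunit of the initiation factor eIF2, whose phosphorylation slows translation under stress, had values of -0.11, 0.63 and 0.25 at 1 h and of -0.75, -0.68 and -1.02 at 3 h. The difference was -1.07 ± 0.26 (SE, adjusted p = 0.268 with limma), and here the 1 h arrays were the ones apart: all 17 later arrays, from -1.12 to -0.15, lay below every 1 h array, as did 7 of 9 sham and control arrays. Hook3, a dynein adaptor, Slc5a5, the sodium iodide symporter, Kremen1, a receptor of the Wnt inhibitor dickkopf, and the gene annotated as Mlnr completed the lower genes, with differences from -1.31 to -0.90.

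Among genes higher at 3 h, Npffr2, a receptor of RFamide neuropeptides, read -1.92, -1.56 and -1.47 at 1 h and -0.51, -0.15 and -0.08 at 3 h. The difference was 1.40 ± 0.29 (SE, adjusted p = 0.2 with limma), and all 17 later and all 9 sham and control arrays lay above every 1 h array. Smad4, the shared mediator of TGF-beta and BMP signalling, read -0.79, -2.27 and -0.19 and then 0.07, 0.05 and 1.23, with a difference of 1.53 ± 0.41, and again the 17 later arrays, from 0.05 to 1.25, lay above those of 1 h, whereas only 4 of 9 sham and control arrays did. Grem1, a secreted BMP antagonist, read -2.26, -3.17 and -2.04 and then -0.50, 0.49 and -1.08, a difference of 2.13 ± 0.52.

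Mmp12, the elastase of macrophages, read -1.81, -3.16 and -0.84 at 1 h and -0.37, 1.33 and -0.28 at 3 h, a difference of 2.16 ± 0.55 (SE, adjusted p = 0.284 with limma). Its paired spots differed by up to 4.67 and 1 of its spots was near the floor. Tmem158, a membrane protein induced by Ras signalling, read 1.33, 1.90 and 1.91 and then 3.21, 2.67 and 3.49, a difference of 1.41 ± 0.37. Its 6 h mean was 2.02, and 14 of 17 later arrays lay below all 3 h arrays. Gpbp1 differed by 1.94 ± 0.41, Tmem33 by 2.03 ± 0.45, and Ehd3, an endocytic recycling protein, by 2.05 ± 0.47. Tfdp1, the partner of E2F factors, Dnajc2, a ribosome-associated chaperone, Pdxk, pyridoxal kinase, and Fbxw2, an F-box protein, differed by 0.83 to 1.56.

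The later arrays show which of the 2 times lies off the rest of the bled series. Of the 12 leading higher genes 9 had their 1 h mean farther than their 3 h mean from the median of the 17 later arrays, and of the 12 lower genes 10 had their 3 h mean farther. Over features with an unadjusted p under 0.05 the same holds for 63.2% of 250 higher ones (1 h farther) and 75.7% of 206 lower ones (3 h farther), and over all 5834 features with 6 values the 3 h mean was farther in 55.7%. Selection by a 3 h minus 1 h difference makes 1 of the 2 means extreme, so these shares are given as a description.

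**Figure D3:**
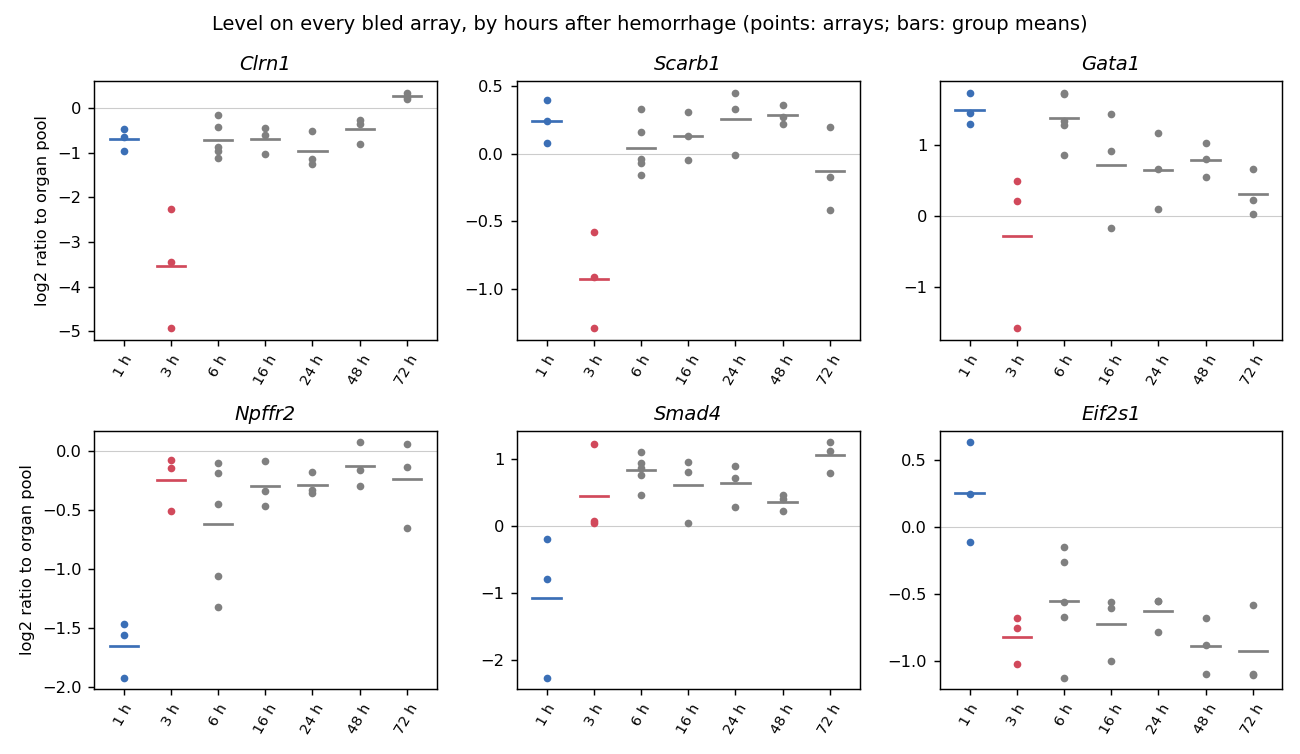
Each panel is a gene, the x axis is hours after hemorrhage and the y axis the log2 ratio to the organ pool. Points are arrays, 3 at each time and 5 at 6 h, and bars are means; Clrn1, Scarb1 and Gata1 are lowest at 3 h, while Npffr2 and Smad4 are lowest and Eif2s1 highest at 1 h.

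The genes of 32 pathway and marker lists are described next by counts and medians beside those of all features tested, whose median difference was 0 with 50.3% above 0. In all 32 lists 0 genes were called, against 0.0162% of all features, and the list medians ran from -0.3 to 0.46. No list was tested against the other genes.

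**Figure D4:**
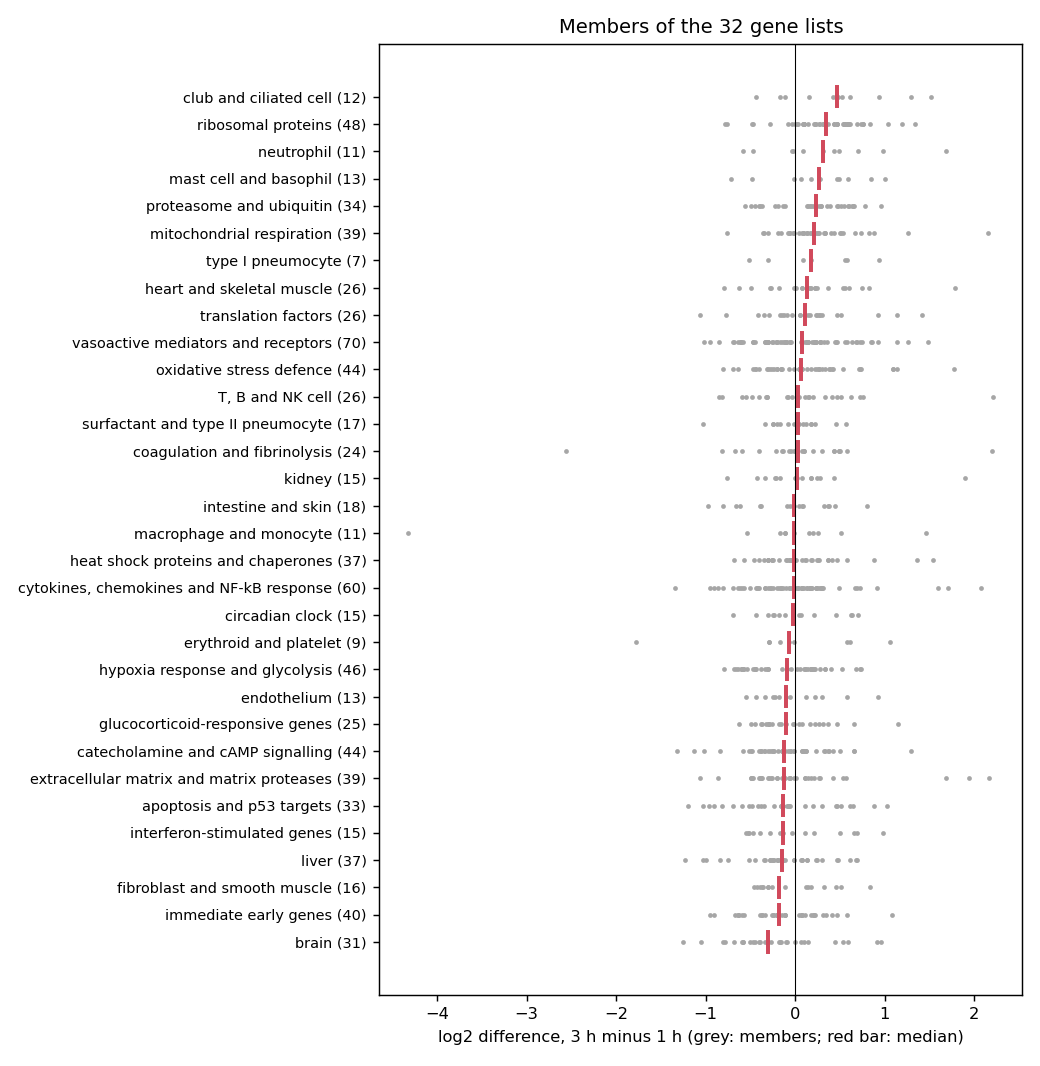
Each row is a list with the number of measured genes in parentheses, the x axis is the log2 difference of 3 h minus 1 h, grey points are genes and red bars list medians. Medians lie between -0.3 for brain and 0.46 for club and ciliated cell genes, while single genes spread far wider.

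Genes of the proteasome, the complex that degrades ubiquitin-tagged proteins, and of ubiquitin transfer were above 0 in 24 of 34 cases, with a median of 0.23 (0.09 to 0.34 without each array in turn). The median level of the list was 0.40, 0.39 and 0.23 on the 1 h arrays and 0.44, 0.10 and 0.52 on the 3 h arrays, so the groups overlapped and 3 h array 2 was the lowest of the 6. Of the 33 with 6 values, 8 had all 3 h arrays above all 1 h arrays, 24.2% against 5.4% of all features, and 0 had all below, against 5.33%. None was called. The genes were the 20S subunits Psma2, Psma6 and Psmb1, the 19S ATPases Psmc2 and Psmc3, the activator subunit Psme2, the conjugating enzyme Ube2g1 and the hydrolase Uchl1. Psme2 read 0.59, 0.56 and 0.87 at 1 h and 1.31, 1.19 and 1.5 at 3 h, a difference of 0.66 ± 0.22 (SE, adjusted p = 0.416 with limma). The paired spots of Psme2 differed by up to 1.58, more than that difference. Psmb1 read 0.61, 0.95 and 0.80 and then 1.51, 1.61 and 1.57, a difference of 0.78 ± 0.5, and its 6 h mean was -0.13. Psma6 differed by 0.39 ± 0.3, and its highest 1 h and lowest 3 h arrays both rounded to 1.09. Ube3a, a ubiquitin ligase, differed by -0.56 ± 0.26.

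**Figure D5:**
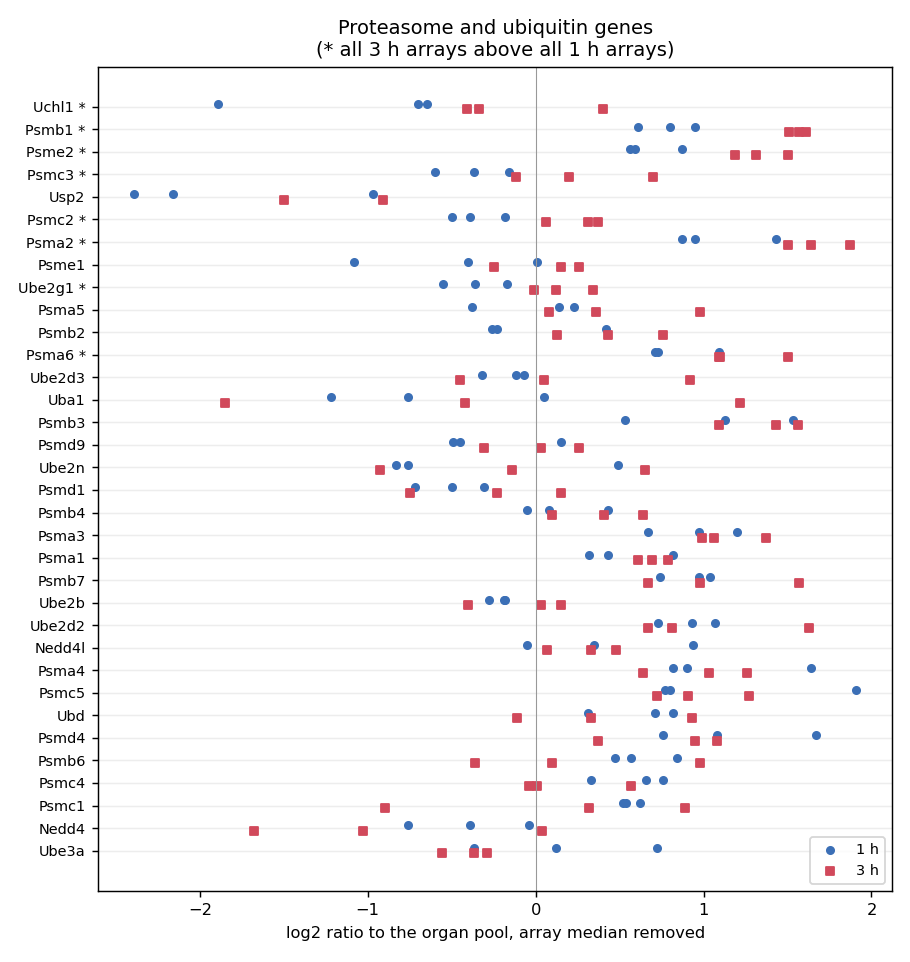
Rows are the 34 measured proteasome and ubiquitin genes ordered by their difference, and the x axis is the log2 ratio to the organ pool after removal of the array median. Blue circles are 1 h arrays and red squares 3 h arrays; the 8 starred genes have every square to the right of every circle.

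Bases before the start of some of these genes are shown because 8 members of the list shared 1 order of the arrays. The motif GGGCGG, the GC box bound by Sp-family factors, on either strand in the 250 bases before the start, was present in 25 of 34 (73.5%) of the list and in 7 of the 8 genes above, against 32.4% of 27457 rat promoters of RefSeq (GRCr8). TGACNNNGC, the core of the antioxidant response element, was in 8 of 34 (23.5%) and in 0 of the 8, against 10.2%. A match is a description of the letters, and no binding was measured. The share among promoters of all genes on the array was not counted. For the 3 of the 8 with a GC box within 60 bases of the start, those bases are printed 5′ to 3′ on the gene's strand, GC boxes in capitals. Psmb1 is on chr1:65134771-65134830 (minus strand), Psmc3 on chr3:97487583-97487642 (plus) and Uchl1 on chr14:41849418-41849477 (minus).
Psmb1: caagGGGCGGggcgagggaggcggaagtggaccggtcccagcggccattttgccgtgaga
Psmc3: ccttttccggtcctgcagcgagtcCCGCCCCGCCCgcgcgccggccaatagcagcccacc
Uchl1: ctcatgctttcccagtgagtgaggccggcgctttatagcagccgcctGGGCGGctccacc

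Ribosomal protein genes were above 0 in 40 of 48 cases with a median of 0.34, but that median was 0.03 after quantile normalization. The median of the list was 0.94, 1.59 and 1.37 on the 1 h arrays and 2.14, 1.21 and 1.33 on the 3 h arrays, so that 3 h array 1 stood above the other 5 and the groups overlapped. Rpl10a read 0.94, 1.20 and 0.90 and then 2.86, 2.09 and 2.11, a difference of 1.34 ± 0.5 (SE, adjusted p = 0.467 with limma), and Rpl11 differed by -0.79 ± 0.29. Of 48 genes 5 had all 3 h arrays above (10.4%, against 5.4% of all features) and 1 all below (2.08%, against 5.33%). The list's median was -1.03 for 6 h minus 3 h and -0.65 for 6 h minus 1 h, contrasts that share arrays with the first.

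Cytokine, chemokine and NF-kB response genes split evenly, 30 above and 30 below 0 of 60, with a median of -0.02. Tnfaip6, an anti-inflammatory hyaluronan-binding protein, read -1.51, -0.54 and -0.99 at 1 h and -0.37, 0.09 and -0.04 at 3 h, a difference of 0.91 ± 0.26 (SE, adjusted p = 0.321 with limma). Cxcl6, a neutrophil-attracting chemokine, read -4.29, -1.59 and -2.69 and then -1.22, -0.41 and -0.74. Tnf differed by 1.71 ± 0.65 and Il2 by 1.59 ± 0.45, both with overlapping arrays. Paired spots differed on some array by up to 5.17 for Tnf, 4.18 for Il2, 1.79 for Cxcl6 and 1.67 for Tnfaip6. Tnf and Cxcl6 each had 1 spot near the floor. Socs1, an inhibitor of cytokine signalling, read 0.04, -0.88 and -0.65 and then -1.43, -2.17 and -1.92, with paired spots up to 2.04 apart. Csf2, the macrophage growth factor GM-CSF, differed by -0.91 ± 0.4. Interferon-stimulated genes had a median of -0.14 over 15.

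Vasoactive mediators and their receptors had a median of 0.07 over 70 genes, 36 above and 34 below 0. Of 66 with 6 values, 4 lay all above at 3 h (6.06%, against 5.4% of all features) and 7 all below (10.6%, against 5.33%). Ptgs2, the inducible cyclooxygenase, read 1.51, 0.84 and 1.33 at 1 h and 0.18, 0.04 and 0.62 at 3 h, a difference of -0.95 ± 0.4 (SE, adjusted p = 0.532 with limma), and its 6 h mean was 1.36. Ptger3, a prostaglandin E2 receptor, differed by 1.26 ± 0.47 and Adm, the vasodilator adrenomedullin, by 0.68 ± 0.31, both with overlapping arrays. Ramp1, a subunit of the CGRP receptor, read 0.79, 1.00 and 0.76 and then -0.24, 0.41 and 0.64. The next genes were chosen because their arrays did not overlap. Agt, angiotensinogen, differed by -0.62 ± 0.29, and Agtr1a, the angiotensin receptor, by 0.63 ± 0.33. Nos2, the inducible nitric oxide synthase, read -1.94, -0.70 and -1.14 and then -0.68, -0.35 and -0.57. Tbxas1, thromboxane synthase, differed by 0.86 ± 0.5 and Ptgis, prostacyclin synthase, by -0.22 ± 0.24.

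The catecholamine and cAMP list had a median of -0.12 over 44 genes. Of 43 with 6 values, 3 lay all above at 3 h (6.98%, against 5.4% of all features) and 5 all below (11.6%, against 5.33%). Rgs4, which shortens G-protein signalling, read -0.20, 0.13 and -0.33 at 1 h and -0.53, -2.92 and -0.91 at 3 h, lowest on 3 h array 2. Adcy5, an adenylate cyclase, read 0.68, -0.08 and 0.04 and then -1.27, -0.33 and -1.16, a difference of -1.13 ± 0.49. Gnaq, of the same list, lay all above at 3 h with a difference of 0.65 ± 0.35, and its paired spots differed by up to 3.11. Immediate early genes had a median of -0.18 over 40, 15 above and 25 below 0. Egr1, a zinc-finger factor of that class, read -1.83, -1.60 and -1.94 and then -1.05, -0.02 and -1.08. Its difference was 1.08 ± 0.36 (SE, adjusted p = 0.412 with limma), and its paired spots differed by up to 1.78. Glucocorticoid-responsive genes had a median of -0.1 over 25, 10 above and 15 below 0, and Klf15, a glucocorticoid-induced factor, read -0.02, -0.51 and -0.54 and then 1.36, 0.93 and 0.08, a difference of 1.15 ± 0.37.

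Oxidative stress genes had a median of 0.06 over 44. Txn1, thioredoxin, read 1.18, 1.57 and 0.75 at 1 h and 2.28, 1.83 and 2.66 at 3 h, a difference of 1.09 ± 0.37 (SE, adjusted p = 0.421 with limma), while Gsr, glutathione reductase, read 1.13, 0.93 and 0.40 and then -0.17, -0.01 and 0.20, a difference of -0.81 ± 0.3. Hypoxia and glycolysis genes had a median of -0.09 over 46. Pfkfb4, which regulates glycolysis, differed by -0.61 ± 0.23, with paired spots up to 1.51 apart. Hspa1b, an inducible heat shock protein, read -2.53, -1.91 and -1.29 and then -0.92, 0.61 and -0.82, and the median of the 37 chaperone genes was -0.02. In the coagulation list Gp5, a platelet glycoprotein, read 0.10, -0.08 and 0.07 and then -0.31, -5.51 and -1.77, and 3 h array 2 held the lowest value.

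Markers of lung cells did not pass the test in either direction. Surfactant and type II genes had a median of 0.03 over 17 (-0.18 after quantile normalization), type I genes 0.18 over 7 (-0.02), club and ciliated genes 0.46 over 12 (0), and endothelial genes -0.1 over 13. Neutrophil genes had a median of 0.31 over 11, with list medians of 0.39, 0.40 and 0.03 on the 1 h arrays and 0.04, 0.29 and 0.45 on the 3 h arrays, which overlapped. Of 25 T, B and NK cell genes with 6 values, 4 lay all below at 3 h (16%, against 5.33% of all features) and 0 all above (against 5.4%). They were Cd8a, Ptprc, Klrb1a and Cd247. Cd8a, the co-receptor of cytotoxic T cells, read 0.19, -0.01 and -0.18 and then -0.62, -1.45 and -0.47, a difference of -0.85 ± 0.3 (SE, adjusted p = 0.464 with limma). Cd3d, of the T cell receptor complex, differed by 0.76 ± 0.39, and the list's median was 0.03. The paired spots of Cd8a differed by up to 3.78 and those of Cd3d by up to 3.27, more than the differences given.

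Markers of organs other than lung were counted as well, since the pool contains them. Of 18 intestine and skin genes 5 had all 3 h arrays below all 1 h arrays, 27.8% against 5.33%, while 8 of the 18 were above 0 and the median difference was -0.02. The median level of the list was -0.15, -0.04 and -0.13 on the 1 h arrays and -0.43, -0.71 and -0.69 on the 3 h arrays, a gap that the median difference of its genes does not show. Fabp2, the intestinal fatty acid-binding protein, read 0.49, 0.26 and -0.10 and then -0.54, -1.21 and -0.51, a difference of -0.97 ± 0.31 (SE, adjusted p = 0.411 with limma). Liver genes had a median of -0.15 over 37 and brain genes -0.3 over 31, while muscle genes had 0.14 over 26. The part of the organ pool in these values was not tested.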

How the data were processed

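The authors deposited log2 ratios of lung RNA to a pool of organ RNA, 1 column per array; per the labels, the pool is named as 10 organs with 9 listed. Neither label nor header used here states the dye of each channel, the scanner or the normalization. The direction was read from lung genes, which were high on the 6 arrays. On the linear scale 100% of ratios lay within 0.001 of a multiple of 0.01.

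Values were centred on each array's median and averaged over the spots of a gene symbol; of 13056 spots 10652 had 1 symbol from the platform annotation, 16 had several and 2388 had none and were averaged as neighbouring pairs. limma 3.58.1 in R 4.3.3 (lmFit, eBayes, two-sided) fitted group means over the 23 bled arrays of 7 times, which share 1 estimate of the spread, and 3 h was compared with 1 h; features needed 2 values at both times. The number of arrays limits the precision. An adjusted p under 0.05 (Benjamini-Hochberg over 6181 features) is a call. The calculation was tested on simulated data.

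Named genes by rule were the called ones, the 12 of smallest p in each direction with 6 values, and up to 4 of smallest p in each of 32 lists; other list genes, given because the arrays did not overlap, and genes whose bases are printed, were chosen after their values were seen. The members and lists were chosen with earlier results of these data known. Same-numbered arrays did not deviate together (r -0.106, 0.221 and -0.018), so numbers were not taken as pairs. Alternatives were other scalings, fits, filters and each array left out.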

Additional observations from a re-analysis of the deposited data

Results flagged for a closer look

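Over the 24 leading genes, 1 array of the 5 taken at 6 h stood far from the other 4 for 2 genes. Gpbp1 read -1.03 on 6 h array 2, against 0.07 on the nearest array, a gap of 0.85 of the range. Slc5a5 read -0.30 on 6 h array 5, against 0.03, a gap of 0.714 of the range. Chance flags about 1 in 20 such groups, and 24 groups were examined.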

How the results depend on the processing

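All 24 leading genes kept their sign under the 18 alternatives, and 143 of the 147 genes named by rule did (list genes given for arrays that did not overlap are not among them); the reversed ones were Sftpa1 (-0.14) and Sec14l3 (-0.03) after quantile normalization, Cry2 with array weights (-0.1) and Irf1 without 1 h array 2 (-0.25; -0.25 to 1.6 over the arrays left out). The count of called genes, 1, became 0 with the 6 arrays only, 0 with all 32 arrays (1 sham array with liver rather than lung genes among them) and 20 with array weights, whose estimation did not fully converge (17 higher, 3 lower); leaving out each array gave 0 to 3. With spots near the floor left out 1 feature was called, an unnamed spot pair in place of Clrn1. Without 16 h array 3 in the fit Clrn1 remained the 1 called feature. In that fit 591 features had an unadjusted p under 0.05 (320 higher, 271 lower). Features with an unadjusted p under 0.05, 493, became 477 after quantile normalization (242 higher, 235 lower), 459 with all 32 arrays (239 and 220), 557 without 3 h array 1 (265 and 292), 283 with the 6 arrays only (198 higher, 85 lower) and 792 with array weights (476 and 316).

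With the replicate number as a block on the 6 arrays, 0 genes were called and 351 features had an unadjusted p under 0.05 (267 higher, 84 lower); the arrays share only a number. After quantile normalization the list medians moved to -0.15 for cytokines, -0.18 for surfactant, 0 for club and ciliated and -0.02 for type I genes. Leaving out each array, the medians ranged from -0.07 to 0.22 for translation factors, -0.16 to -0.04 for immediate early genes, -0.11 to 0.09 for cytokines, -0.22 to -0.07 for glucocorticoid-responsive genes, -0.23 to -0.05 for hypoxia genes, 0.03 to 0.15 for oxidative stress, -0.13 to 0.05 for vasoactive genes, -0.06 to 0.17 for coagulation, -0.14 to 0.1 for clock genes, -0.28 to 0 for apoptosis, -0.11 to 0.02 for matrix, -0.18 to 0.09 for surfactant, 0.07 to 0.59 for club and ciliated, 0.16 to 0.39 for type I, -0.23 to 0.11 for endothelium, -0.06 to 0.21 for macrophage, -0.03 to 0.37 for mast cell, -0.16 to 0.11 for fibroblast, -0.15 to 0.04 for kidney and -0.19 to 0.08 for intestine and skin genes. The causes were not tested. Precision is limited by 3 arrays at each time and by ratios near the floor.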
